A study of Mus musculus with 400 samples.

Results

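The 36 genes described here encode the exocytosis machinery, the proteins that dock a vesicle at the plasma membrane, hold it ready and let it fuse when calcium enters. They were chosen by name, as 11 synaptotagmins, 6 SNAREs, 5 vesicle membrane proteins, 3 synapsins, 2 complexins, 6 genes for Rab3 proteins and their effectors, and 3 priming factors. All 36 have a row among the 24754 gene rows used. They were followed across single dorsal root ganglion (DRG) neurons of naive mice carrying Nav1.8-Cre and the R26CAG-floxStop-tdTomato reporter (strain label Nav1.8-Cre.Ai14). The mice were 6 to 12 weeks old, and the ganglia came from cervical levels C1 to C8. Cre is driven by the gene of the sodium channel Nav1.8 (Scn10a), so a sorted tdTomato-positive cell belongs to the lineage that has at some time used this gene. The cells came from 6 mice. Run 1 held Blue and Red, run 2 Control, run 3 both Control1 and Control2, and run 4 Control6, and values of mice are given below in this order. No mouse was treated, so cells were compared with other cells of the same mice, and the mouse was the replicate. Of 394 cells with a column, 371 had at least 500 detected genes and were used.

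Cells were sorted into 6 gates by their level of marker genes, in CPM, the gene's count divided by the cell's own total and brought to the same total in every cell. The gates were Mrgprd at 200 CPM or more (30.5% of the 371 cells), Mrgpra3 at 50 or more (47), Sst or Nppb at 100 or more (46), Th at 100 or more (39), Calca at 2000 with Tac1 at 1000 or more (86), and Nefh at 500 or more (26). In sensory biology Mrgprd marks non-peptidergic nociceptors, Mrgpra3 a kind of itch neuron, Sst or Nppb another kind, and Th low-threshold C fibres. Calca with Tac1 marks peptidergic nociceptors, and Nefh large myelinated neurons, though the Nefh gate here also held Calca, as given below. A total of 329 cells passed exactly 1 gate, 14 passed 2 and 28 passed none. The nearest cells to a limit lay at 138 and 253 CPM for Mrgprd, 43.04 and 60.7 for Mrgpra3, 99.1 and 109 for Th, and 476 and 506 for Nefh. For Sst they lay at 79.4 and 200.1 CPM and for Nppb at 17.7 and 106.96. The Calca limit fell between cells at 1909 and 2455 CPM, and the Tac1 limit between 859 and 1233.

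Calcium-triggered release rests on a small set of parts. A vesicle SNARE (a VAMP) zips together with syntaxin and SNAP-25 on the plasma membrane, synaptotagmins sense calcium, complexins clamp and then assist the SNAREs, Rab3 and RIM tether the vesicle, and Munc13 and CAPS prime it. Synaptotagmins differ in calcium affinity and speed: Syt1, Syt2 and Syt9 are fast sensors, whereas Syt7 is a slow sensor of high affinity. In sensory neurons the same machinery releases glutamate from small clear vesicles and neuropeptides from dense-core vesicles, and CAPS proteins are best known for the latter.

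The number of cells set how many mice each gate could rest on, since a mouse entered with at least 3 cells that passed that gate only. The Mrgprd gate had 31, 34, 15, 8, 9 and 11 such cells in the 6 mice, and the Calca and Tac1 gate 32, 37, 3, 3, 3 and 3. The Sst or Nppb gate had 4 mice, and the Mrgpra3 and Th gates had 2 each, Blue and Red, which are also the mice of 1 run. In the Nefh gate only Control had enough, with 13 of 17 cells, so that gate was tested with all its gated cells instead and is described last. Median depth was 46055 recovered counts per cell in the Mrgprd gate, 39371 in Mrgpra3, 17052 in Sst or Nppb, 30987 in Th, 19621 in Calca and Tac1, and 83995 in Nefh. Neuronal genes (Uchl1, Tubb3, Rbfox3, Prph and Scn10a) summed to a median between 7015 and 8408 CPM in every gate. Within this list Scn10a averaged from 236 CPM in Th to 1000 in Mrgprd cells, and Prph from 973 in Nefh to 2418 in Th cells. Satellite glial markers (Apoe, Fabp7, Kcnj10, Sparc, Ednrb) had a median of 0 CPM in 4 gates, 36.4 in Calca and Tac1 and 3050 in Nefh. Their summed level reached 2880 CPM in the Mrgprd gate, 4307 in Mrgpra3, 4341 in Sst or Nppb and 5326 in Th. In Calca and Tac1 it reached 6780 CPM and in Nefh 25092, and all 5 were found in every gate. The Schwann cell list had its highest medians in the Nefh gate, at 432 CPM, and the Th gate, at 293 CPM. Of the mural cell list only Rgs5 was abundant, at a mean of 695 CPM in the Th gate and 404 in Mrgpra3, with Acta2 and Myh11 at 0 in every Th cell.

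Exocytosis genes differed widely between these neuron groups. Synpr and Rph3a were high in Mrgprd and Th cells, Synpr in Mrgpra3 cells too, and both averaged under 20 CPM in every mouse's Sst or Nppb cells. Syt7 was highest in Mrgprd cells and lowest in Sst or Nppb cells, Sv2a was high in Th and in Calca and Tac1 cells and all but missing from Mrgprd cells, and Syt4 was highest in Mrgprd and in Calca and Tac1 cells. Of the 31 members with a mean of at least 10 CPM, 20 differed among the 5 gates in limma's F test at a Benjamini-Hochberg adjusted p under 0.05, beside 25.5% of all 9139 genes tested. The remaining 5 members, Syt3, Syt13, Syt17, Rims1 and Cadps2, were under that mean and were not tested. By role, the test called 7 of 8 synaptotagmins, 1 of 6 SNAREs, 3 of 5 vesicle membrane proteins, 2 of 3 synapsins, both complexins, 4 of 5 Rab3 proteins and effectors, and 1 of 2 priming factors. Among the SNAREs only Snap25 was called. Without Red, 13 members were called (11.9% of all genes), and 14 without Blue (12.2%).

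**Figure D1:**
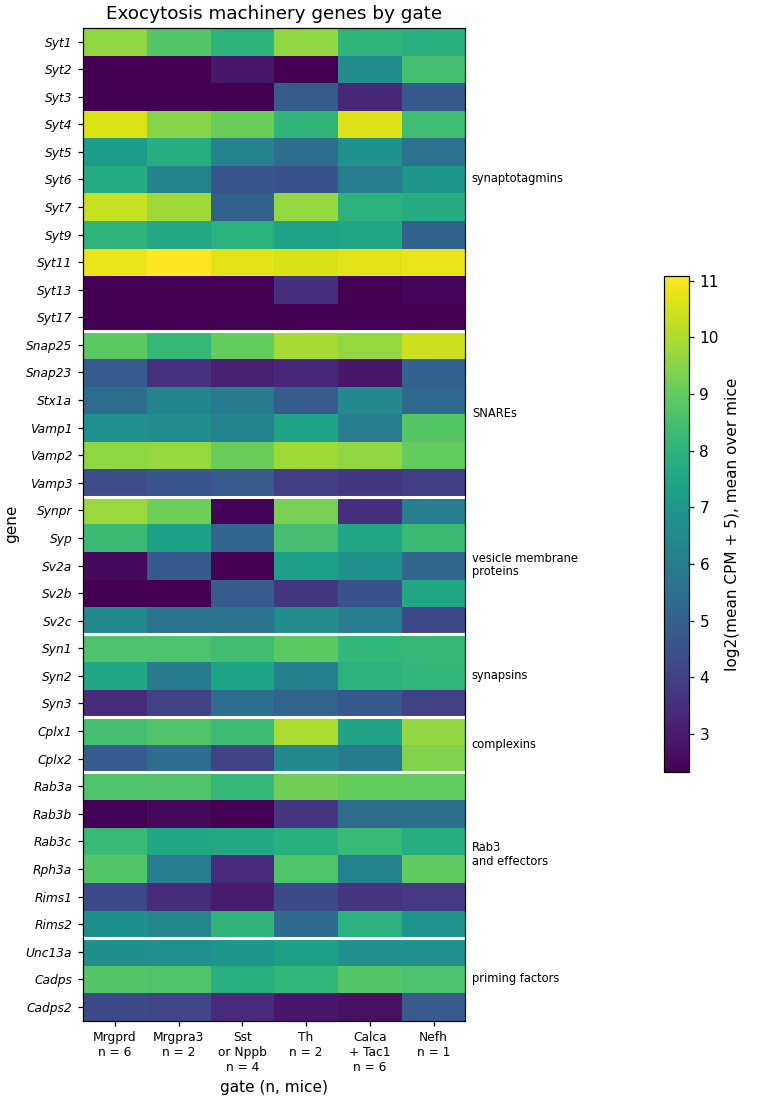
Mean level of the 36 genes in each gate, as log2(mean CPM + 5) averaged over the mice given under each column; white lines separate the roles. Syt11 and Unc13a change little across the row, while Synpr runs from 868 CPM in the Mrgprd gate to 0.272 CPM in the Sst or Nppb gate.

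Each gate was then set against the unweighted mean of the other gates, with the mouse as a block, on log2(mean CPM + 5). Runs 2 to 4 alone held no Mrgpra3 or Th mean, so differences given for those runs are against fewer gates. The Mrgprd gate was higher in 9 of 31 members (6.78% of all genes were higher) and lower in 2 (4.46% of all genes). The 9 were Syt1, Syt4, Syt5, Syt6, Syt7, Syt9, Synpr, Syn2 and Rph3a, and the 2 were Syt2 and Sv2a. The members' median difference was 0.39 on the log2 scale, beside 0.11 over all genes. Leaving out Blue or Red gave 7 calls each (4.02% and 4.15% of all genes), and Syn2, Syt2, Syt5 and Syt9 were lost both times, at adjusted p from 0.163 to 0.4. Syt5 and Syt9 were also lost without Control (0.0552 and 0.068), and Syt2 and Syt9 without Control6 (0.0529 and 0.0571).

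The Mrgpra3 gate was higher in 2 of 31 members, Syt5 and Synpr (1.43% of all genes), and lower in 2, Snap25 and Syn2 (0.832% of all genes). Without Blue or without Red the gate keeps 1 mouse, whose spread is then assumed to be that of the other gates. None of these calls can therefore be checked with either mouse left out, and only the differences are given. Without Blue they were 3.06 for Synpr, 1.35 for Syt5, -1.38 for Snap25 and -1.20 for Syn2. Without Red they were 2.63, 1.07, -1.13 and -1.14 in the same order. In the fit of all mice the median difference of the members was -0.13, beside -0.01 over all genes.

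In the Sst or Nppb gate 12 of 31 members were lower, beside 10.8% of all genes, and 1 was higher, beside 5.48% of all genes. The lower members were Syt1, Syt4, Syt6, Syt7, Vamp2, Synpr, Syp, Sv2a, Cplx2, Rab3a, Rph3a and Cadps, and the higher one was Rims2. The median difference was -0.50 for the members and -0.15 over all genes. This gate also had the lowest median depth. Thinning to 10000 counts dropped the shallower cells, which left this gate 2 of its 4 mice and the Calca and Tac1 gate 4 of 6. In that fit 11 members were called (7.12% of all genes), all of them among the 13. Vamp2 and Cplx2 were lost at adjusted p of 0.146 and 0.376, with depth, cells and mice all changed. Without Blue 6 members were called (5.12% of all genes) and without Red 8 (5.16%), with Syt4, Syt6, Vamp2, Cplx2 and Rab3a lost both times and Syt1 and Cadps without Blue, at adjusted p from 0.0608 to 0.21.

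The Th gate was higher in 6 of 31 members, Snap25, Synpr, Syp, Sv2a, Cplx1 and Rph3a, beside 4.15% of all genes. It was lower in 4, Syt4, Syt5, Syn2 and Rims2, beside 4.46%. The members' median was 0.32 against 0.03 over all genes. This gate also rests on Blue and Red, and 4 members were called without Blue (1.59% of all genes) and 2, Syt4 and Cplx1, without Red (1.24%), the lost ones at adjusted p from 0.0592 to 1.0. Syp was lost without Control (0.0522) and without Control6 (0.0516) too. The part of the Schwann cell and Rgs5 levels of this gate in these differences was not tested. Without cells over 1000 CPM of glial markers 17 of 28 members were called, 9 of the 10 among them, beside 15.5% of all genes against 8.61% with these cells.

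The Calca and Tac1 gate was higher in 8 of 31 members, Syt2, Syt4, Snap25, Sv2a, Syn2, Rab3a, Rab3b and Rims2 (7.01% of all genes). It was lower in 4, Syt1, Synpr, Syn1 and Cplx1 (5.31% of all genes). The median was 0.13 for the members and 0.01 over all genes. Syt1 was lost when any mouse but Control was left out (adjusted p from 0.062 to 0.22), Syn1 when any but Control and Control6 was (0.0606 to 0.426), Rab3a when any but Control and Control2 was (0.0779 to 0.384), and Syn2 without Blue (0.0726).

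**Figure D2:**
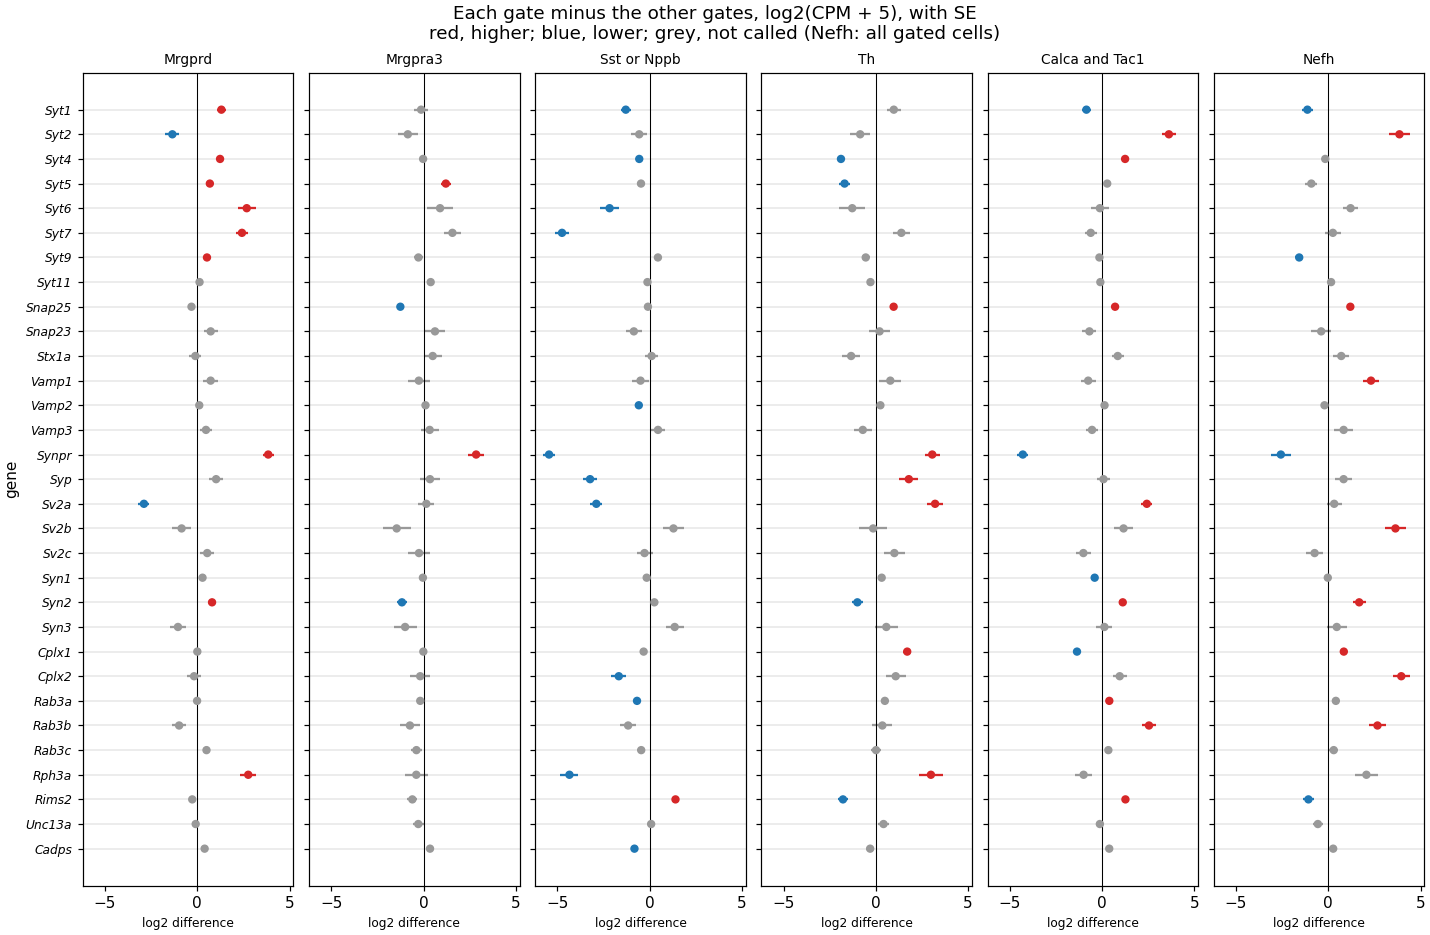
Difference of each gate from the mean of the other gates for the 31 tested members, on log2(CPM + 5), with its standard error; red is higher, blue lower and grey not past an adjusted p of 0.05. Synpr spans the widest range, from 3.84 in the Mrgprd gate to -5.45 in the Sst or Nppb gate.

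Among the synaptotagmins, Syt7, the slow high-affinity sensor, separated the gates most clearly. Its mean CPM in the Mrgprd gate was 1256, 1319, 1449, 1420.5, 1111 and 1244 in the 6 mice. In the Sst or Nppb gate it was 50.98 in Blue, 23.5 in Red, 0 in Control and 38.8 for Control1. The Mrgpra3 gate, at 910 CPM in Blue and 902 in Red, and the Th gate, at 833 and 802 CPM, lay between them, and none of these groups overlapped. Calca and Tac1 cells held 240.5 ± 44.3 CPM (SD, n = 6), also clear of both sides. Beside each difference, here and below, stand the mice with the same direction, each compared only over the gates it held in the fit. Of the 5 gates, Blue and Red held all, and Control2 and Control6 only Mrgprd and Calca and Tac1. The Mrgprd gate was higher by 2.42 ± 0.33 (SE) on the log2 scale (limma adjusted p = 3.15e-05, 6 of 6 mice) and the Sst or Nppb gate fell by 4.75 ± 0.36 (adjusted p = 1.73e-08, 4 of 4 mice). Both differences were called under every alternative. Syt7 overlaps 384 exonic bases of the antisense gene Gm26859, and any use of strand in counting was not given in the sources used here, so reads of the pair cannot be told apart.

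Syt4, a synaptotagmin of dense-core vesicles that binds calcium poorly, showed another order. Its means over mice were 1519 ± 233 CPM in the Mrgprd gate (n = 6) and 1557 ± 336 in Calca and Tac1 (n = 6), which overlapped. The Mrgpra3 gate followed at 709 and 713 CPM in Blue and Red. Sst or Nppb cells had 523, 501, 334 and 845 CPM in Blue, Red, Control and Control1, so that Control1 reached above the Mrgpra3 values. Lowest were the Th cells, at 214 and 289 CPM. The Th gate was lower by a difference of -1.89 ± 0.19 (adjusted p = 1.05e-06, 2 of 2 mice), while the Mrgprd gate rose by 1.23 ± 0.13 (adjusted p = 1.98e-06, 4 of 6 mice) and the Calca and Tac1 gate by 1.25 ± 0.13 (adjusted p = 1.6e-06, 6 of 6). In runs 2 to 4 alone, where the Mrgpra3 and Th gates are missing from the comparison, the Calca and Tac1 difference was 0.61 and was not called (adjusted p = 0.0825). Syt4 overlaps 566 exonic bases of the antisense gene Gm26658, with the same limit.

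Syt6, known from the acrosome reaction of sperm, was highest in Mrgprd cells. The lowest of the 6 mice there had 172 CPM, the median was 192 and the highest had 259. No other gate reached this: the Mrgpra3 means were 70.5 and 72.1 CPM, those of the Th gate 21.6 and 14.6, and those of Calca and Tac1 ran from 0 in Control2 to 140 in Control1. The Mrgprd gate was higher by 2.67 ± 0.48 (adjusted p = 0.000649, 6 of 6 mice), under every alternative. For Sst or Nppb cells, at 20.47 ± 25.3 CPM (n = 4), the difference was -2.17 ± 0.53 (adjusted p = 0.00715).

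Syt5 had its highest level in Mrgpra3 cells. Blue and Red had 202 and 228 CPM there, above every other mean of the gene, and the difference was 1.21 ± 0.28 (adjusted p = 0.022, 2 of 2 mice), lost in thinned cells (0.065). In the Mrgprd gate the 6 mice ran from 76.2 to 168 CPM with a median of 139, higher by 0.68 ± 0.19 (adjusted p = 0.0243, 6 of 6 mice). That call held in 11 of 20 alternatives, and without glia-rich cells the difference was 0.35 (adjusted p = 0.345). Th cells had the least among the 5 gates, at 48.2 and 31.2 CPM, a difference of -1.70 ± 0.28 (adjusted p = 0.000354).

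Syt1, the main fast sensor of forebrain synapses, was high in Mrgprd and Th cells. The Mrgprd means of the 6 mice were 659, 685, 1115, 905, 689 and 718 CPM, and those of Th were 769 and 794 CPM. In the Sst or Nppb gate the 4 mice lay between 79.5 and 419 CPM, and in Calca and Tac1 the 6 lay between 84.2 and 385 CPM, so neither gate overlapped with Mrgprd. The Mrgprd difference was 1.302 ± 0.26 (adjusted p = 0.00151, 6 of 6 mice, called under every alternative). The Th difference, which rests on 2 mice, was not called.

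Syt2, the fast sensor of hindbrain and neuromuscular synapses, was found in Calca and Tac1 cells and, as described below, in Nefh cells. The Calca and Tac1 means of the 6 mice were 71.7, 26.8, 74.02, 41.3, 126.2 and 231 CPM. In the other 4 gates, 12 of 14 means were 0 and the highest was 9.69 CPM, so the groups did not overlap. The difference was 3.62 ± 0.38 (adjusted p = 1.73e-06, 6 of 6 mice), under every alternative. At the level of cells, 40 of 81 Calca and Tac1 cells (49.4%) had a count, against 0.926% of Mrgprd cells, which are deeper. Thinned to 10000 counts, 28 of 77 Calca and Tac1 cells had one and no Mrgprd cell did.

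Of the rest of the family, Syt9, another fast sensor, ran from 154 to 326 CPM in Mrgprd cells and was higher by 0.52 ± 0.15 (adjusted p = 0.0303, 5 of 6 mice), but overlapped with every other gate among the 5. The call held in 10 of 20 alternatives, and in thinned cells the difference was 0.23 (adjusted p = 0.529). Syt11, a synaptotagmin with no calcium binding, was abundant everywhere, between 1225 and 2196 CPM in all 20 means, and was called in no gate. Syt3 was at 0 CPM in every Mrgprd, Mrgpra3 and Sst or Nppb mean and at 17.2 and 32.5 CPM in the Th gate. Syt13 reached 12.6 CPM in 1 Th mean and 0.403 in 1 Mrgprd mean and was otherwise 0 in the means of the 5 gates, and Syt17 was listed at 0 throughout.

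Of the 6 SNAREs, Snap25 alone was called in the F test over the 5 gates. Vamp2, the main vesicle SNARE of synapses, had gate means from 546 to 899 CPM and was lower in the Sst or Nppb gate by a difference of -0.59 ± 0.15 (adjusted p = 0.00836, 4 of 4 mice), lost in runs 2 to 4 (0.128) as in thinned cells. Control1, at 309 CPM, stood apart there from the other three, at 618 to 634 CPM. The plasma membrane SNARE Stx1a had gate means between 24.1 and 81.96 CPM, Vamp1, another vesicle SNARE, between 60.6 and 168, and the widely expressed Vamp3 between 8.26 and 23.6, and none of these differed in the test of the 5 gates. Snap23, the relative of Snap25 in non-neuronal cells, stayed at or under 16.2 CPM in every mean of the 5 gates but 1.

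Snap25, the plasma membrane SNARE that botulinum toxin A cuts, was called in 4 of the 6 gates. Th cells had 1004 and 925 CPM in Blue and Red, and Calca and Tac1 cells ran from 754 to 978 CPM with a median of 799. Mrgprd cells ran from 395 to 529 CPM and Mrgpra3 cells had 295 and 263 CPM, and of these 4 groups only Th and Calca and Tac1 overlapped. Sst or Nppb cells, at 393 to 612 CPM, overlapped with Mrgprd cells. The Calca and Tac1 gate rose by 0.71 ± 0.10 (adjusted p = 6.7e-05, 6 of 6 mice), under every alternative, and the Th gate by 0.96 ± 0.15 (adjusted p = 0.00019). In the Mrgpra3 gate Snap25 fell by 1.25 ± 0.15 (adjusted p = 4.87e-05, 2 of 2 mice).

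**Figure D3:**
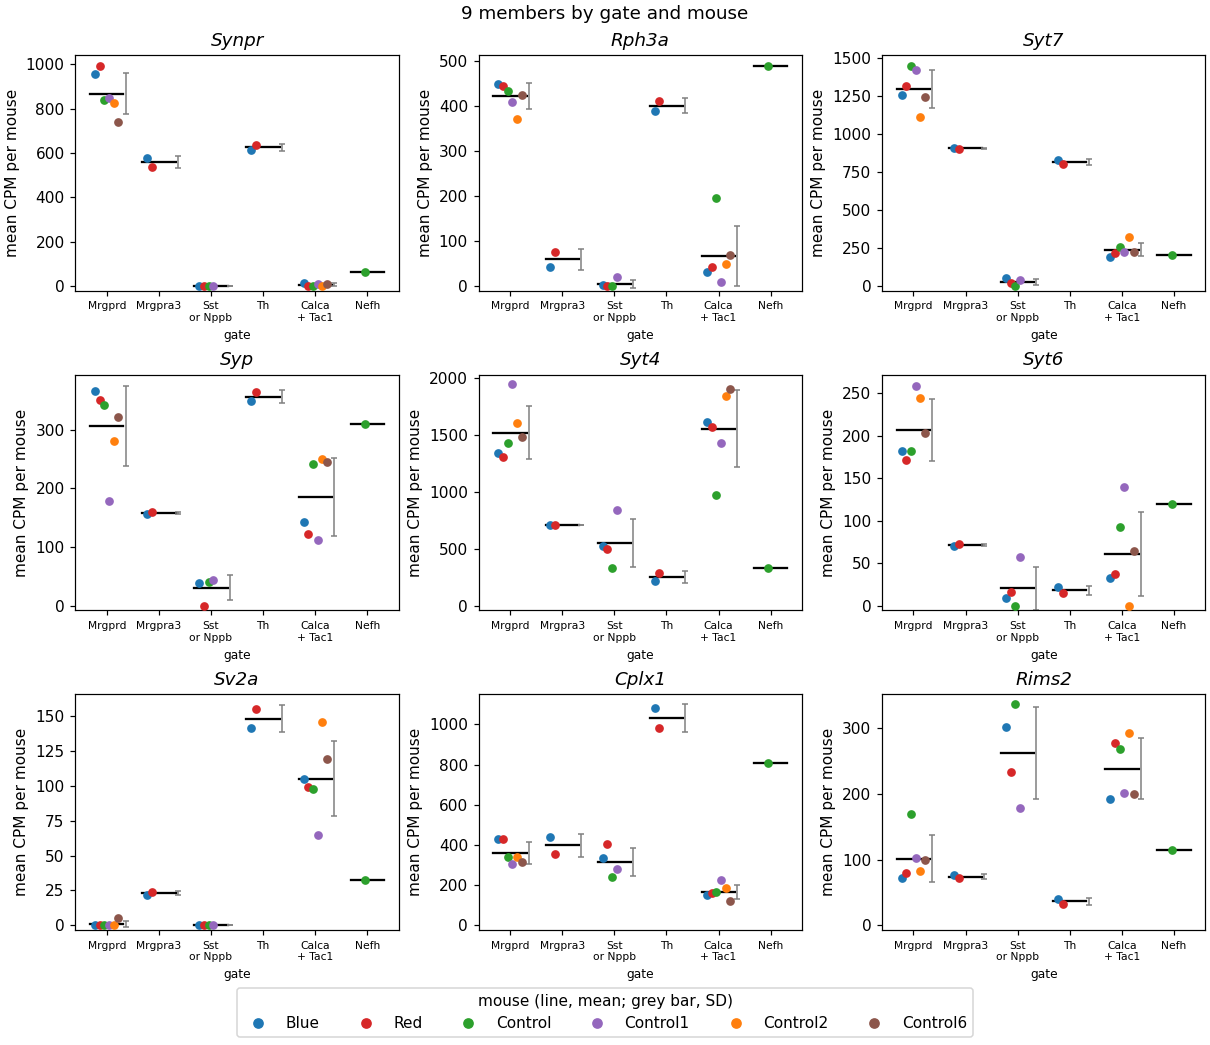
Mean CPM of 9 members per mouse (coloured points) in each gate, with the mean over mice (black line) and the SD (grey bar); the Nefh gate shows Control, the mouse with 13 cells of its own. For Synpr, all Mrgprd, Mrgpra3 and Th points lie above 500 CPM and all Sst or Nppb and Calca and Tac1 points below 20.

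Synaptoporin (Synpr), a tetraspan protein of synaptic vesicles related to synaptophysin, had the widest range of levels of all members. In the Mrgprd gate the 6 mice had 957, 993, 839, 850.4, 827 and 738 CPM. Mrgpra3 cells had 578 and 539 CPM and Th cells 615 and 636 CPM in Blue and Red. In the Sst or Nppb gate Blue had 1.09 CPM and the other 3 mice were at 0, and in Calca and Tac1 the mice ran from 0 to 16.3 CPM. The Mrgprd gate was higher by 3.84 ± 0.29 (adjusted p = 2.57e-08), Mrgpra3 by 2.85 ± 0.42 (adjusted p = 0.000592) and Th by 3.05 ± 0.42 (adjusted p = 5.2e-05). Sst or Nppb fell by 5.45 ± 0.32 (adjusted p = 6.56e-10) and Calca and Tac1 cells had a difference of -4.29 ± 0.29 (adjusted p = 5.6e-09), in all mice compared. The calls of the Mrgprd, Sst or Nppb, and Calca and Tac1 gates held under every alternative.

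Single cells showed the same split. Synpr had a count in 98.1% of Mrgprd cells (Clopper-Pearson 95% interval 93.5 to 99.8%) and in 34 of 34 Th cells, but in 1 of 45 Sst or Nppb cells (2.22%, 0.0562 to 11.8%) and 5 of 81 Calca and Tac1 cells (6.17%, 2.03 to 13.8%). These intervals cover counting error only. Thinned to 10000 counts, every Mrgprd and every Th cell had a count, against 0 of 40 Sst or Nppb and 2 of 77 Calca and Tac1 cells, so the gap was as large at equal depth. The highest Calca and Tac1 cell had 491 CPM.

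The sequences before the first listed start of Synpr and of Rph3a, which share the high Mrgprd and Th and the low Sst or Nppb levels, and of Syt2, which has the opposite levels in the Mrgprd and Calca and Tac1 gates, are shown for comparison. They are 250 bases each from RefSeq on GRCm38.p6, 5′ to 3′ on the gene's strand, at chr14:13284530-13284779 (plus strand), chr5:121010093-121010342 (minus strand) and chr1:134646362-134646611 (plus strand). Capitals mark matches on either strand to the CCAAT box (those same letters), to the GC box, searched as GGGCGG, and to the RUNX core, searched as TGTGGT, and TGACGTCA (CRE) was searched as well.
Synpr: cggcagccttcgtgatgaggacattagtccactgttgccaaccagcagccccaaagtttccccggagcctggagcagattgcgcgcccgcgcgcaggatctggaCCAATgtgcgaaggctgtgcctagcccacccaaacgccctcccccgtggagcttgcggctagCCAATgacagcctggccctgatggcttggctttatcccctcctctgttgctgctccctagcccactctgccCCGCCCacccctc
Rph3a: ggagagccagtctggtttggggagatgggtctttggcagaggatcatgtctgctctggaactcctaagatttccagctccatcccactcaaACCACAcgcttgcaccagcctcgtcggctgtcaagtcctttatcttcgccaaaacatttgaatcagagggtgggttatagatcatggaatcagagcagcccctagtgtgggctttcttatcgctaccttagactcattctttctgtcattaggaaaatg
Syt2: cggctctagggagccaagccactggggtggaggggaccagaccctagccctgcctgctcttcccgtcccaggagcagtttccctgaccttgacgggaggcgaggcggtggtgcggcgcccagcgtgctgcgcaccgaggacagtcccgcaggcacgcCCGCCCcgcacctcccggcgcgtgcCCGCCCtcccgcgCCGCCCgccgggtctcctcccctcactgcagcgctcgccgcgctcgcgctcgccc
Synpr held 2 CCAAT boxes and 1 GC box, Rph3a 1 RUNX core, and Syt2 3 GC boxes. Of 27025 RefSeq windows of the same 250 bases, 34.5% held a CCAAT match, 32.9% a GC box, 14.2% a RUNX core and 1.62% a CRE. Of the 26 members with an entry, 7 held a CCAAT match, 19 a GC box, 2 a RUNX core and 1 a CRE. A match describes letters only.

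Synaptophysin (Syp), an abundant vesicle membrane protein, shared with Synpr the high Mrgprd and Th and the low Sst or Nppb levels, over a narrower range. Calca and Tac1 cells, low in Synpr, were not low in Syp. They averaged 185.7 ± 66.4 CPM (n = 6), which overlapped with Mrgpra3 cells, at a mean of 158.2 CPM (n = 2). The Calca and Tac1 difference was 0.08 and was not called (adjusted p = 0.932). Th cells had 349 and 365 CPM, and Mrgprd cells ran from 179 in Control1 to 366 in Blue, with a median of 332 CPM. Sst or Nppb cells had means of 39.6, 0, 40.4 and 43.7 CPM in Blue, Red, Control and Control1, below every mean of the other gates. The Sst or Nppb gate fell by 3.23 ± 0.40 (adjusted p = 9.33e-06, 4 of 4 mice), under every alternative, and the Th gate rose by 1.79 ± 0.52 (adjusted p = 0.0382, 2 of 2 mice). The Th call was also lost without glia-rich cells (0.0613), without the mouse block (0.0702) and with a pseudocount of 1 (0.194). In cells thinned to 10000 counts Syp had a count in 96.1% of Mrgprd cells and 6 of 40 Sst or Nppb cells. It overlaps 875 exonic bases of the antisense gene Gm14703, so its reads too may be shared.

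Sv2a, a vesicle glycoprotein and the binding site of the drug levetiracetam, was split in yet another way. The Mrgprd means were 0 CPM in 5 mice and 5.16 in Control6, and all 4 Sst or Nppb means were 0. Mrgpra3 cells had 22.01 and 24.2 CPM, and Th cells 142 and 155. Calca and Tac1 cells had 105.3, 99.3, 97.6, 64.7, 146 and 119.04 CPM in the 6 mice. Th and Calca and Tac1 overlapped with each other and with no other gate. The Th gate was higher by 3.21 ± 0.43 (adjusted p = 4.41e-05) and Calca and Tac1 by 2.43 ± 0.30 (adjusted p = 1.11e-05, 6 of 6 mice), and the Mrgprd gate was lower by a difference of -2.89 ± 0.30 (adjusted p = 1.42e-06, 6 of 6). The Mrgprd call was lost with edgeR on recovered counts (difference -4.44, adjusted p = 1) and in runs 2 to 4 (-2.11, 0.0662), and the Calca and Tac1 call in thinned cells (2.04, 0.0742).

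Among single cells, 0.926% of Mrgprd cells had a count of Sv2a (interval 0.0234 to 5.05%), at a median depth of 46055 counts, against 71 of 81 Calca and Tac1 cells (87.7%, 78.5 to 93.9%), at 19621. None of 45 Sst or Nppb cells, at a median depth of 17052, had one, which allows a share of up to 6.67% of cells with a count (3 of 45, counting error only). The fitted difference of that gate depends on the 5 CPM added and is not given as a fold.

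Sv2c, a relative of Sv2a, varied between mice as much as between gates. It ran from 13.5 to 195 CPM in Mrgprd cells and from 0 to 176 CPM in Calca and Tac1 cells, and the test called no difference. Sv2b was at 0 in every Mrgprd and Mrgpra3 mean and averaged 24.1 ± 20.2 CPM in the Sst or Nppb gate (n = 4) and 17.8 ± 22.5 in Calca and Tac1 (n = 6), with no call among the 5 gates.

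**Figure D4:**
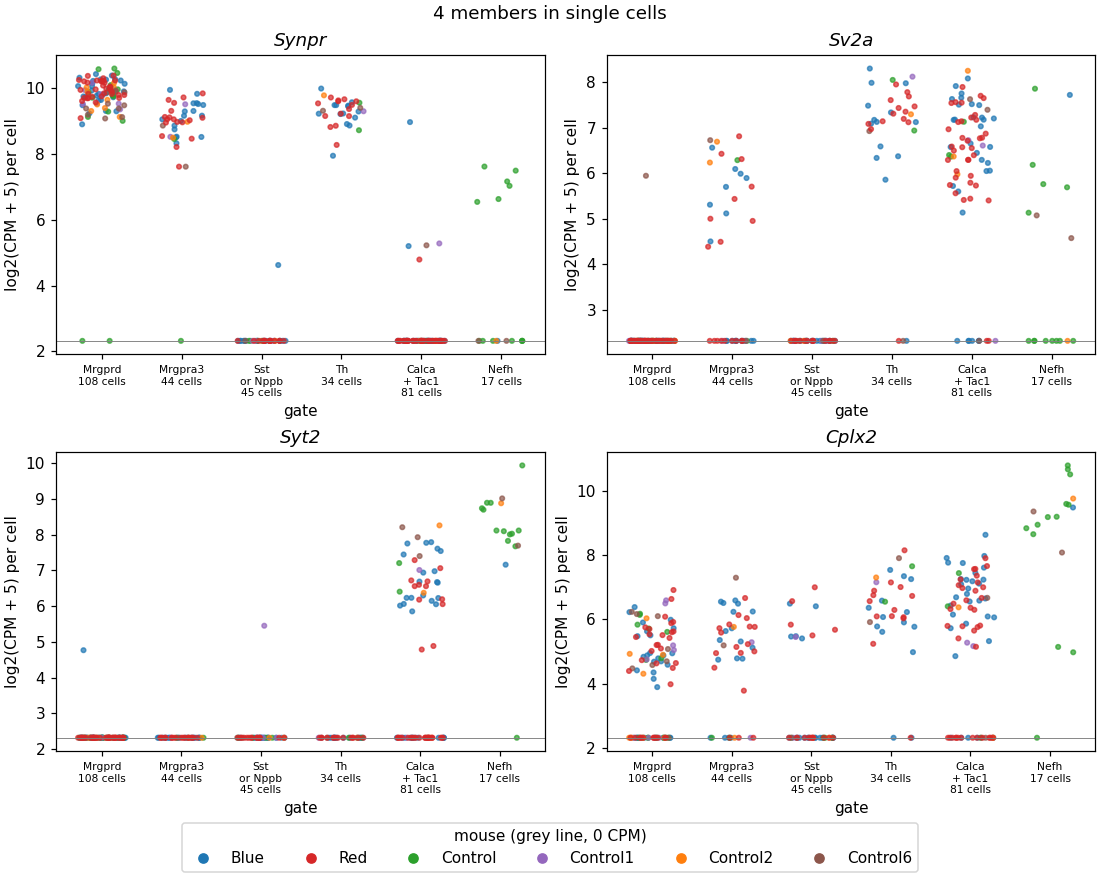
Level of 4 members in each of the 329 cells that passed exactly 1 gate, as log2(CPM + 5), coloured by mouse; the grey line is 0 CPM. Synpr and Sv2a are at 0 in nearly all Sst or Nppb cells, and 0.926% of Mrgprd cells have a count of Sv2a.

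Synapsins tether vesicles to each other and to actin, and 2 of the 3 were called. Syn2 was lowest in Mrgpra3 cells, at 60.4 and 54.3 CPM, and Th cells, at 54.9 and 73.03, and no mean of the other 3 gates fell into that range. In Calca and Tac1 cells it ran from 100.2 to 416 CPM with a median of 235, a difference of 1.12 ± 0.20 (adjusted p = 0.000602, 5 of 6 mice). The Mrgpra3 difference was -1.17 ± 0.29 (adjusted p = 0.0397) and that of Th -1.001 ± 0.29 (adjusted p = 0.0378). Mrgprd cells, at 164 to 199 CPM, were higher by 0.80 ± 0.20 (adjusted p = 0.012), yet in only 3 of 6 mice. In runs 2 to 4 alone, where the low Mrgpra3 and Th gates are missing from the comparison, the Mrgprd difference was -0.027. That of Calca and Tac1 was 0.29 there (adjusted p = 0.678). The Th call was lost with all cells that pass a gate (-0.56, adjusted p = 0.598) and in thinned cells (0.0718), and the Mrgpra3 call with a pseudocount of 1 (0.0525). Syn1 was lower in Calca and Tac1 cells (272 ± 53.9 CPM, n = 6), by a difference of -0.40 ± 0.13 (adjusted p = 0.0451), lost in runs 2 to 4 (0.393) and without glia-rich cells (0.0636). Syn3, which overlaps 1733 exonic bases of the antisense gene Timp3, had gate means from 5.54 to 40.4 CPM and no call.

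Of the complexins, small proteins that bind the assembled SNAREs, Cplx1 was set apart in Th cells. Blue and Red had 1081 and 982 CPM there. The highest mean in any other of the 5 gates was 440.0 CPM, in the Mrgpra3 cells of Blue. Calca and Tac1 cells had the least, from 122.3 to 225 CPM, below every other mean of the 5 gates. The Th gate rose by 1.70 ± 0.21 (adjusted p = 1.2e-05, 2 of 2 mice). That call held under every alternative that gave a value, though the fits without Blue or Red keep 1 Th mouse and cannot check it. Calca and Tac1 fell by 1.36 ± 0.14 (adjusted p = 1.62e-06, 6 of 6 mice). In runs 2 to 4 alone, where the Mrgpra3 and Th gates are missing from the comparison, the Calca and Tac1 difference was -0.72 and was not called (adjusted p = 0.13).

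Cplx2 had 72.1 and 92.9 CPM in Th cells and ran from 21.6 to 110.1 CPM in Calca and Tac1 cells. Mrgprd cells had 13.95 to 32.3 CPM. Means of 15.6, 23.4, 0 and 9.69 CPM were found in the Sst or Nppb cells of Blue, Red, Control and Control1, a difference of -1.67 ± 0.42 (adjusted p = 0.00797, 4 of 4 mice), which overlapped with Mrgprd. It was lost in thinned cells, without glia-rich cells (0.0609) and in runs 2 to 4 (0.171).

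Among the Rab3 proteins and effectors, rabphilin (Rph3a) binds Rab3 and SNAP-25 on the vesicle. It shared with Synpr the high Mrgprd and Th and the low Sst or Nppb levels. The Mrgprd means were 448, 443, 433, 409, 369.8 and 424 CPM in the 6 mice and those of Th 388 and 411 CPM, which overlapped. Mrgpra3 cells had only 42.9 and 76.1 CPM, and Sst or Nppb cells 1.80, 0, 0 and 19.4 CPM (Blue, Red, Control, Control1). Calca and Tac1 cells ran from 10.3 CPM to 196 in Control, below every Mrgprd and Th mean. The Mrgprd gate was higher by 2.76 ± 0.44 (adjusted p = 0.000204, 6 of 6 mice) and Th by 2.98 ± 0.64 (adjusted p = 0.00433, 2 of 2), and Sst or Nppb fell by 4.35 ± 0.49 (adjusted p = 2.75e-06, 4 of 4). The Mrgprd and Sst or Nppb calls held under every alternative. With all cells of the Nefh gate, where Synpr was called lower, Rph3a had 467, 203 and 232 CPM in Control, Control2 and Control6. Its difference there was 2.07 ± 0.64 and was not called (adjusted p = 0.0536). After thinning, every Mrgprd cell, 12 of 43 Mrgpra3 cells and 2 of 40 Sst or Nppb cells had a count.

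Rims2, an active-zone protein that binds Rab3 and calcium channels, was the only member called higher in Sst or Nppb cells. The means there were 301, 233, 336 and 179 CPM in Blue, Red, Control and Control1, and Calca and Tac1 cells had 191 to 293 CPM. Both lay above every Mrgprd mean (71.9 to 170 CPM), Mrgpra3 mean (76.8 and 71.5) and Th mean (40.1 and 32.7). The Sst or Nppb gate rose by 1.40 ± 0.20 (adjusted p = 6.57e-05, 4 of 4 mice) and Calca and Tac1 by 1.27 ± 0.19 (adjusted p = 7.25e-05, 6 of 6), and Th was lower by a difference of -1.78 ± 0.27 (adjusted p = 0.000149). In runs 2 to 4 alone the rises were 0.47 and 0.57 and neither passed (adjusted p = 0.537 and 0.325). There the low Mrgpra3 and Th gates are missing, and each of these 2 high gates is set against the other and Mrgprd.

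Of the Rab3 GTPases themselves, Rab3a, the main neuronal form, was lower in Sst or Nppb cells (240 to 317 CPM) by a difference of -0.69 ± 0.13 (adjusted p = 0.00119, 4 of 4 mice) and higher in Calca and Tac1 cells (361 to 642 CPM) by 0.39 ± 0.12 (adjusted p = 0.038, 6 of 6 mice). The Calca and Tac1 call held in 7 of 20 alternatives, and in run 1 alone the difference was 0.21 (adjusted p = 0.0699), while the Sst or Nppb call was lost in runs 2 to 4 (0.136). Rab3b was found in Calca and Tac1 cells, with means of 23.1, 25.2, 37.2, 84.9, 51.9 and 10.7 CPM in the 6 mice. Elsewhere among the 5 gates it was under 2 CPM in every mean but 1, at 16.3 in the Th cells of Blue. The Calca and Tac1 gate was higher by 2.54 ± 0.38 (adjusted p = 9.46e-05), under every alternative. Rab3b overlaps 317 exonic bases of the antisense gene 8030443G20Rik, with the limit given for Syt7. Rab3c had gate means from 183 to 301 CPM and Rims1 from 3.22 to 14.7 CPM.

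Of the priming factors, Cadps, which encodes the dense-core vesicle factor CAPS1, was lower in Sst or Nppb cells. They had 211, 208, 319.8 and 139 CPM in Blue, Red, Control and Control1, against 368 to 547 CPM in all Mrgprd and Calca and Tac1 means. Mrgpra3 means were 387 and 409 CPM, while the Th means, at 250.5 and 299.9, lay inside the Sst or Nppb range. The Sst or Nppb difference was -0.83 ± 0.16 (adjusted p = 0.000927, 4 of 4 mice). It was lost in runs 2 to 4 (0.0797) and with at least 2 cells per mouse and gate (-0.44, adjusted p = 0.147). Unc13a (Munc13-1) was even, with gate means from 99.8 to 153 CPM. Cadps2 stayed at or under 19.04 CPM in every mean of the 5 gates.

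The Nefh gate held the fewest cells. Its 17 own cells averaged 1501 CPM of S100b, 149 of Ntrk3, 3203 of Calca (16 cells with a count) and 578 of Scn10a. Pvalb had a count in 2 of them. When all cells that pass a gate were used, Control entered with 17 cells and Control2 and Control6 with 3 each, and some of these cells also stood in another gate, where they were counted as well. On this basis 8 of 31 members were higher, beside 4.25% of 9200 genes, and 4 were lower, beside 2.1%. The higher ones were Syt2, Snap25, Vamp1, Sv2b, Syn2, Cplx1, Cplx2 and Rab3b, and the lower ones Syt1, Syt9, Synpr and Rims2. The median difference was 0.32 for the members and 0.11 over all genes. Without Control2, Rims2, Syn2, Synpr and Syt1 were lost (adjusted p from 0.0662 to 0.411), and without Control6, Rims2, Synpr and Syt1 (0.0739 to 0.224). In this gate 15 of 17 own cells held over 1000 CPM of glial markers and depth was the highest of all gates, and the part of either in these values was not tested.

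Cplx2 had 563 CPM in Control, 477 in Control2 and 304 in Control6, and the cells of Blue (2) and Red (1), too few to be tested, had 854 and 1184 CPM. All 5 lay above 110.1 CPM, the highest mean among cells that passed another gate only, which is also the reference for the genes below. The difference was 3.96 ± 0.47 (adjusted p = 3.37e-06, 3 of 3 mice). Cplx1 rose in the same cells, at 803, 587 and 629 CPM in Control, Control2 and Control6, by 0.84 ± 0.18 (adjusted p = 0.00388).

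Syt2 followed, with 311, 270 and 237 CPM in the same order of mice, above the highest Calca and Tac1 mean of 231 CPM. Its difference was 3.86 ± 0.57 (adjusted p = 6.66e-05, 3 of 3 mice), and 16 of the 17 own cells had a count. The 2 cells of Blue averaged 215 CPM and the cell of Red 123.7 CPM, inside the Calca and Tac1 range. Syt9 and Syt1, also fast sensors, were lower: Syt9, at 58.8, 43.99 and 105.9 CPM, by a difference of -1.57 ± 0.22 (adjusted p = 3.36e-05), and Syt1, at 275, 77.99 and 104.7 CPM, by a difference of -1.13 ± 0.32 (adjusted p = 0.0294). The Syt1 call was lost with a pseudocount of 1 (0.0553), with no filter on low values (0.108) and with at least 2 own cells (0.0804).

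Sv2b was at 173, 176 and 151 CPM in Control, Control2 and Control6, with the highest mean elsewhere at 60.4 CPM, and rose by 3.64 ± 0.59 (adjusted p = 0.000206, 3 of 3 mice). Vamp1, known for motor and fast-spiking neurons, was at 431, 339 and 313 CPM, against a highest mean elsewhere of 189. It rose by 2.32 ± 0.42 (adjusted p = 0.000644). The 2 Nefh cells of Blue averaged 350 CPM of Vamp1, and the cell of Red held 177 CPM, under that highest mean. For Rab3b, at 40.3, 78.8 and 71.7 CPM, the groups overlapped with Calca and Tac1 (difference 2.67 ± 0.49, adjusted p = 0.000665). Snap25, at 1345, 1432 and 1219 CPM, stood above all other means of the gene and rose by 1.198 ± 0.17 (adjusted p = 3.19e-05). The calls of Cplx1, Cplx2, Rab3b, Snap25, Sv2b, Syt2, Syt9 and Vamp1 held under every alternative tried for this gate.

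**Figure D5:**
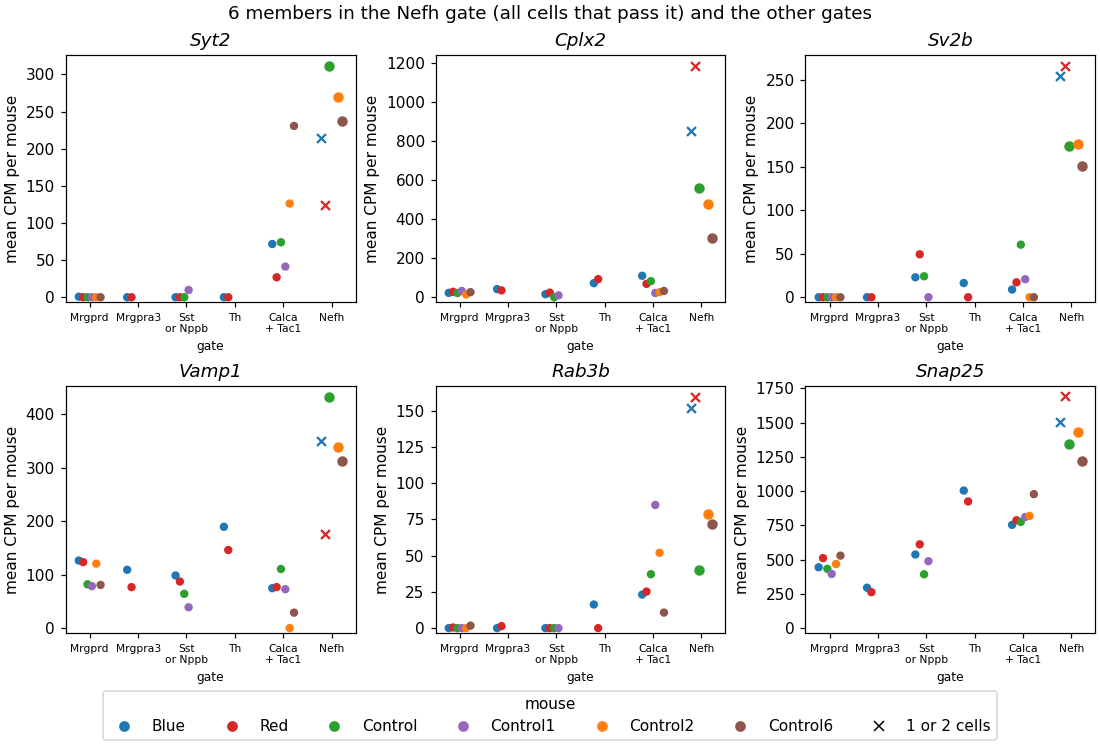
Mean CPM per mouse of 6 members in the Nefh gate, with all cells that pass it (crosses, mice with 1 or 2 such cells), beside the means of the other 5 gates. For Cplx2, Sv2b and Snap25 every Nefh point lies above every other point.

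Other genes of the pathway were counted from a list of 90, of which 89 have a row. Of the 69 that were tested, 32 differed among the 5 gates, beside the 20 of 31 members and the 25.5% of all genes. The 3 with the smallest p were Unc13c, Rab27b and Rims3. Unc13c, a Munc13 form, had gate means of 195 CPM in Mrgprd, 98.2 in Mrgpra3, 194 in Sst or Nppb, 6.97 in Th and 34.9 in Calca and Tac1 cells (adjusted p = 8.68e-08). Rab27b, a GTPase of secretory vesicles, had 520 in Mrgprd, 356 in Mrgpra3, 7.79 in Sst or Nppb, 56.3 in Th and 75.3 CPM in Calca and Tac1 cells (adjusted p = 3.95e-07), and Rims3 had its highest mean, 557 CPM, in Calca and Tac1 cells (adjusted p = 1.33e-06). Against the other gates, 7 of the 69 were higher and 4 lower in Mrgprd (15.9% called, beside 11.2% of all genes). In Mrgpra3 0 were higher and 1 lower (1.45%, beside 2.27%), and in Sst or Nppb 4 and 14 (26.1%, beside 16.3%). In Th they were 8 and 4 (17.4%, beside 8.61%), and in Calca and Tac1 7 and 3 (14.5%, beside 12.3%). In Nefh 8 and 2 of 70 were called (14.3%, beside 6.35%).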

How the data were processed

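The deposited tables give a signal per gene and cell, a count multiplied by a factor that differs between cells and has a meaning not given in the sources used here. Cells were sequenced one by one with molecular barcodes, per the labels' protocols, and STAR 2.7.3a and mm10 are named in the submitters' processing notes. Whole reads were recovered in 252 of 394 columns, and for the remaining 142 the counts are an estimate. In the median column 96.5% of the low values came out whole, with 0.1 of a count as the tolerance. These recovered counts gave depth, thinning and the edgeR fit. Of 24781 entries, 26 that carry dates in place of symbols (0.146% of the signal) and Rn45s (7.42%) were left out before scaling to CPM. The 23 cells under 500 genes held at most 383 counts. No column was unused and none was identical to another. Kept cells held a median of 30366 counts (918 to 324984), and 1 count was worth up to 868 CPM in the shallowest Mrgprd cell.

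Mean CPM per mouse and gate was taken over cells passing exactly 1 gate, with at least 3 cells. limma 3.58.1 (R 4.3.3, trended prior) was fitted to log2(mean CPM + 5), with gate and mouse as terms, on 20 means and on the 9139 genes that averaged 10 CPM or more, and p-values were adjusted over all of them (Benjamini-Hochberg, threshold 0.05). Differences of low genes are understated on this scale. Since gates were set on genes of the same cells, p-values are conditional on the gates. CPM are not per length, so levels of different genes were not compared. The fit was tested on simulated data. edgeR 4.0.16 was an alternative. All 36 members are described, and the 13 that averaged 20 CPM or more, had a called F test and had gate means spanning at least 4-fold are described in full. Members, gates and lists were chosen with earlier results of these data known. Exon overlaps come from GENCODE on GRCm38. Antisense overlaps not given above are 495 bases of Colgalt1 in Unc13a and shorter ones in Sv2b, Syn1, Syn2 and Rab3a.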

Additional observations from a re-analysis of the deposited data

Results flagged for a closer look

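In 81 groups of 4 or 6 mice (1 member in 1 gate), a mouse was singled out when its gap to the nearest other mouse, over the whole range of the group, exceeded Dixon's 95% critical value. There were 11 such mice. A rate by chance of about 1 in 20 groups holds for equally precise means, whereas these means rested on 3 to 37 cells. Any excess over chance was therefore not tested. Control accounted for 6 of them. In its 15 Mrgprd cells Snap23 averaged 120.8 CPM, against at most 10.6 in the other mice, and a single cell held 1735 CPM. Rims2 averaged 170 CPM in the same cells, against 71.9 to 102.6, with 868 and 652 CPM in the top cells and a median of 97.7. A count in the shallowest cell of that gate was worth 868 CPM.

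In the 3 Calca and Tac1 cells of Control, Cadps was at 547 CPM (368.6 to 426 in the other mice), Rph3a at 196 (10.3 to 68.6) and Sv2b at 60.4 (0 to 20.6). The highest of these cells held 427 CPM of Rph3a, and 1 of the 3 held all of the Sv2b, at 181 CPM. Satellite glial markers averaged 2460 CPM in these cells, against 29.6 to 2609 in the other mice. In the 4 Sst or Nppb cells of Control, Rab3c was low at 87.4 CPM (209.7 to 234 elsewhere).

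The others were spread over 4 mice. Snap25 was at 978 CPM in the 3 Calca and Tac1 cells of Control6 (754 to 819 elsewhere). In the Sst or Nppb gate, Syn3 was at 64.9 CPM in Blue (30.9 to 34.1 elsewhere), and Syp was at 0 in Red, in 0 of 15 cells (39.6 to 43.7 elsewhere). Unc13a was at 47.4 CPM in Control1 (138 to 145 elsewhere), and Vamp2 at 309 CPM in the same 4 cells (618 to 634 elsewhere).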

How the results depend on the processing

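Of 62 called differences of members, 24 were called under every alternative tried. Of their 1071 alternative values, 930 kept direction and call, 140 kept direction only (69 of them with a mouse left out, 17 in runs 2 to 4 alone), and 1 turned: Syn2 in the Mrgprd gate, at -0.027 in runs 2 to 4. Shares of all genes called under the same setting follow in parentheses. Members differing among gates numbered 20 (25.5%), and 11 in runs 2 to 4 alone (10.1%). Mrgprd calls numbered 11 (11.2%), but 19 with at least 5 cells per mouse and gate (19.1%), 17 with edgeR (28.6%) and 19 in run 1 alone (19.4%). Mrgpra3 calls numbered 4 (2.27%), but 10 with at least 5 cells (17.4%), 13 with edgeR (19.1%), 11 in run 1 (18.1%), 7 without glia-rich cells (5.86%) and 7 with at least 2 cells (9.97%), an alternative chosen after seeing the data. Sst or Nppb calls numbered 13 (16.3%), and 6 in runs 2 to 4 (3.7%). Th calls numbered 10 (8.61%), but 25 with at least 5 cells (34.6%), 21 with edgeR (28.8%), 24 in run 1 (35.1%) and 17 without glia-rich cells (15.5%). Calca and Tac1 calls numbered 12 (12.3%), but 19 with edgeR (26.5%) and 5 in runs 2 to 4 (5.22%). With 1 mouse left out, counts ran from 13 to 22 among gates, 7 to 12 for Mrgprd, 0 to 6 for Mrgpra3, 6 to 15 for Sst or Nppb, 2 to 11 for Th, 8 to 15 for Calca and Tac1, and 8 to 12 for Nefh. Without Blue or Red, the lone mouse of the Mrgpra3 and Th gates is assumed to vary like the other gates. Over all genes, edgeR called 4768 of 9080 among gates, against 2326 of 9139. The cause of these shifts was not tested. Runs 2 to 4 gave no Mrgpra3 or Th value, so their counts and differences, the 1 that turned among them, rest on fewer gates. The Nefh gate, with 1 mouse of at least 3 own cells, gave none in the fit of 5 gates and was not run with thinned, deeper, glia-poor or single-run cells. The mouse was the block in every fit, which pairs gates within mice, while the numbers in the labels name cells and pair nothing. Without this block 19 members differed among gates (24.9%), and 6 called differences were lost.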

Other observations

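The 28 cells that passed no gate also held exocytosis genes. Their mean was 621 CPM for Syt1 (26 cells with a count), 658 for Syt4 (26), 727 for Snap25 (24), 392 for Synpr (20), 629 for Cplx1 (23), 108.1 for Cplx2 (17) and 114.5 for Rims2 (20). Syt2 had a count in 5 of them, with a mean of 54.6 CPM. In the 14 cells that passed 2 gates, the mean was 130.7 CPM for Syt2, 270.4 for Cplx2 and 993 for Snap25. Syt17 had no count in either set.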
